A study of Rattus norvegicus with 6 samples.

Results

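The Wnt gene set described here comprised the genes for Wnt ligands, their receptors and co-receptors, secreted modulators, and the proteins that relay the signal to the nucleus. Members were chosen by gene symbol: a probe set belonged when its single annotated symbol began with Wnt, Fzd, Sfrp, Dkk, Axin, Dvl, Rspo or Lgr followed by a family number, or was Lrp5, Lrp6, Lef1, Tcf7, Tcf7l1, Tcf7l2, Wif1, Apc or Porcn. The rule found 45 of the 14217 genes on the array, with 71 probe sets, and a gene with several probe sets is given by the one whose mean log2 value over the 6 arrays was highest. The measurements were taken on Affymetrix Rat 230 2.0 arrays in fractions of the rat renal inner medulla. The IMCD fraction (3 arrays) was enriched in inner medullary collecting duct cells by low-speed centrifugation, and the nonIMCD fraction (3 arrays) held the cells recovered from the supernatant. Rats were male and Sprague-Dawley. The age label was 6 weeks for IMCD array 1 and 10 weeks for IMCD arrays 2 and 3 and all 3 nonIMCD arrays. All animals behind both fractions had been given 1 mg of furosemide, a loop diuretic, 30 min before death, and both fractions passed through the same enzyme digestion of 75 min at 37 °C. The series used 7 rats in 3 isolations. The sources used here do not say how many rats were pooled for an array.

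Wnt proteins are secreted, lipid-modified ligands. They bind Frizzled receptors, and in the branch that acts through beta-catenin they also bind the co-receptors Lrp5 and Lrp6. Without a ligand, a complex built on Axin and Apc marks beta-catenin for destruction. When Dishevelled proteins relay a Wnt signal, beta-catenin escapes, enters the nucleus and acts with the TCF/LEF factors. Several genes switched on in this way, among them Axin2, Nkd1, Znrf3 and Apcdd1, restrain the pathway in turn. In the mouse, Wnt signals from the ureteric bud and its surroundings are known for building the nephrons and the medulla.

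Promoters of 3 members are shown because they bear on the TCF/LEF part of the pathway: Axin2 and Tcf7, whose sequences hold a TCF/LEF word, and Lef1, a TCF/LEF gene with a large difference between the fractions. The sequences are RefSeq promoters of the GRCr8 assembly, from 250 bases before to 50 bases after the annotated start, written 5′ to 3′ in the direction of the gene. Capitals mark the words CTTTGAA or CTTTGAT or CTTTGTA or CTTTGTT, which were searched on both strands. Axin2 lies on the plus strand at chr10:94398535-94398834, Tcf7 on the minus strand at chr10:36954230-36954529, and Lef1 on the plus strand at chr2:222340463-222340762.
Axin2: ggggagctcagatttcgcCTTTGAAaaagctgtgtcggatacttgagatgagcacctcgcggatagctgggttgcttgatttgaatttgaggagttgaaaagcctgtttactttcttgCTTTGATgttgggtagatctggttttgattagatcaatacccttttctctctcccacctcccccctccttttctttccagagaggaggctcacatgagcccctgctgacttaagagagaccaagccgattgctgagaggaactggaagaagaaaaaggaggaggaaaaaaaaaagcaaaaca
Tcf7: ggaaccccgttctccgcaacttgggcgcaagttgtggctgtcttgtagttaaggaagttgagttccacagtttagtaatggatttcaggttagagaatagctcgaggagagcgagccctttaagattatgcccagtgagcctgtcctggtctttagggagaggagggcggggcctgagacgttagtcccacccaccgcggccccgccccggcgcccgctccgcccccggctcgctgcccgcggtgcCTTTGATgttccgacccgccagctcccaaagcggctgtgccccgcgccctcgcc
Lef1: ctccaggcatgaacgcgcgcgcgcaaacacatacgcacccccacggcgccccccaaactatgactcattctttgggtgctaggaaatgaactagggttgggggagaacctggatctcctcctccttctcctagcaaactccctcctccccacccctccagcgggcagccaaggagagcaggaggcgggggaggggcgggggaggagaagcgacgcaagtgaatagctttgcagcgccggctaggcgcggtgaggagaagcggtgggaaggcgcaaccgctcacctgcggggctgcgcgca
The Axin2 promoter held CTTTGAA with its first base at -232 and CTTTGAT with its first base at -132 from the start, and the Tcf7 promoter held CTTTGAT with its first base at -4. The third member with a word was Sfrp5. An entry was found for 33 of the 45 members, and 3 of these 33 (9.09%) held a word. The share was 17.1% of all 33469 promoters in the table and 12.3% of the 13192 promoters of genes on the array. The words were absent from these windows of the 5 members called higher in IMCD and of the 2 members called lower that had an entry.

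Differences were tested with limma on log2(intensity + 16), as IMCD minus nonIMCD, with Benjamini-Hochberg adjustment over all 31042 probe sets tested, and a gene was called when its adjusted p was under 0.05. The ligand Wnt4 and the receptor Fzd1 were higher in IMCD with the largest positive differences among members, and Wnt5a, Wnt9a and Porcn were also higher. The inhibitor gene Dkk2 and the transcription factor gene Lef1 were lower in IMCD, as was Fzd4. These were 8 of 45 members (17.8%), 5 higher and 3 lower. With the replicate number as a block in the fit, 3 were higher and 2 lower, and Wnt9a (adjusted p = 0.0838), Porcn (0.0555) and Fzd4 (0.0965) were no longer called. The corresponding share over all genes was 25.8%, with 10.0% higher and 15.7% lower. The 3 IMCD values and the 3 nonIMCD values did not overlap for 17 members (37.8%), against 48.7% of all genes. IMCD was the higher fraction in 8 of the 45, where the share of all genes was 20.0%, and the lower in 9 of the 45, where it was 28.7%. The median log2 difference was -0.17 over the members and -0.09 over all genes. Under median centring of the arrays the median of all genes shifted by 0.29, the members' calls became 8 higher and 2 lower, and the higher share of gene calls was 66.3% in place of 38.9%. Wnt4, Wnt5a, Fzd1, Dkk2 and Lef1 were called in the same direction under all 15 alternatives.

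Both fractions were mixtures of cells, and markers of other cell types moved with the fraction. Genes of collecting duct principal cells were higher in IMCD for 13 of 15 markers, and their summed intensity was 276045 to 295311 on IMCD arrays and 139697 to 182646 on nonIMCD arrays. All 15 principal cell markers stood above the highest negative control in nonIMCD as well. Endothelial markers were lower in IMCD for 10 of 10 (summed intensity 14238 to 18310 in IMCD and 69593 to 76223 in nonIMCD), and leukocyte markers for 10 of 11 (3955 to 5821 in IMCD and 125120 to 130889 in nonIMCD). Of the leukocyte markers, Aif1, C1qb, Itgax, Cd3e and Gzmb averaged at or under the highest negative control in IMCD and none did in nonIMCD. Interstitial cell and pericyte markers were lower for 7 of 13, with sums of 5271 to 5870 in IMCD and 34791 to 38593 in nonIMCD. In these bulk samples, fewer cells of a type and less RNA per cell cannot be told apart. The log2 ratio of 3' to 5' signal of control transcripts, a sign of RNA integrity and labelling, was 0.67 to 0.723 on IMCD arrays and 1.22 to 1.5 on nonIMCD arrays, and the part of it and of the cell types in the differences below was not tested.

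Among the ligands the called genes were all higher in IMCD. Of 13 Wnt genes and Porcn, 4 (28.6%) were called and 10 did not pass, beside 25.8% of all genes called. Wnt4, a ligand known in the mouse for turning kidney mesenchyme into epithelium, had intensities of 5772, 5098 and 4942 on the IMCD arrays and 1998, 1206 and 1213 on the nonIMCD arrays. All IMCD values lay above all nonIMCD values, and nonIMCD array 1 was the highest of its fraction. The mean was 5271 ± 441 in IMCD and 1472 ± 455 in nonIMCD (SD, n = 3 each), a 3.65-fold difference (log2 difference 1.87 ± 0.23, SE, adjusted p = 0.00381).

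Wnt5a, a ligand best known for signaling without beta-catenin, had intensities of 2060, 1795 and 1673 on the IMCD arrays and 914, 894 and 920 on the nonIMCD arrays. The nonIMCD values lay close together and far under every IMCD value. The means were 1843 ± 198 in IMCD and 909.3 ± 13.8 in nonIMCD (SD, n = 3 each), 2.0-fold higher in IMCD (log2 difference 1.00 ± 0.13, SE, adjusted p = 0.00447). Wnt9a, another ligand, gave 438, 692 and 522 on the IMCD arrays and 277, 267 and 346 on the nonIMCD arrays. Its groups did not overlap, but IMCD array 1 stood nearer to nonIMCD than the other IMCD arrays. The log2 difference was 0.84 ± 0.21 (SE), with an adjusted p of 0.0383. The call was lost, at adjusted p of 0.0532 to 0.111, without any single array other than IMCD array 1.

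Porcn, which encodes the enzyme that adds the lipid to Wnt proteins, gave 764, 749 and 680 on the IMCD arrays and 493, 506 and 459 on the nonIMCD arrays. The groups were separate and each was narrow. The log2 difference was 0.57 ± 0.12 (SE), with an adjusted p of 0.023. A second Porcn probe set gave 351, 472 and 171 in IMCD and 214, 195 and 207 in nonIMCD, and there IMCD array 3 lay under the nonIMCD values. Its log2 difference was 0.54, with an adjusted p of 0.341, and the first probe set lost its call, at 0.0541 to 0.0821, without any single array other than IMCD array 3. Wls, which encodes the carrier of Wnt proteins to the cell surface, had a log2 difference of 0.03 ± 0.13 (SE, adjusted p = 0.909).

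The other 10 Wnt genes had log2 differences between -0.64 and 0.67, and 5 of them (Wnt5b, Wnt8b, Wnt10a, Wnt11 and Wnt16) averaged at or under 78.4, the highest value of the 3 negative control probe sets on any array, in both fractions. The remaining 5 were Wnt1, Wnt2, Wnt2b, Wnt6 and Wnt7a, whose groups overlapped. The level of 78.4, used throughout, came from nonIMCD array 1. The highest control was 22.4, 45.2 and 45.8 on the IMCD arrays and 13 and 19.9 on nonIMCD arrays 2 and 3. A signal under 78.4 can therefore be above the controls of its own array. Wnt6 differed by -0.64 ± 0.71 (SE, adjusted p = 0.575), and its second probe set averaged under the negative control in both fractions. That probe set gave 68.4, 93.2 and 63.7 in IMCD and 47.0, 4.54 and 9.79 in nonIMCD. Its groups were separate, with a log2 difference of 1.49 (adjusted p = 0.062).

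**Figure D1:**
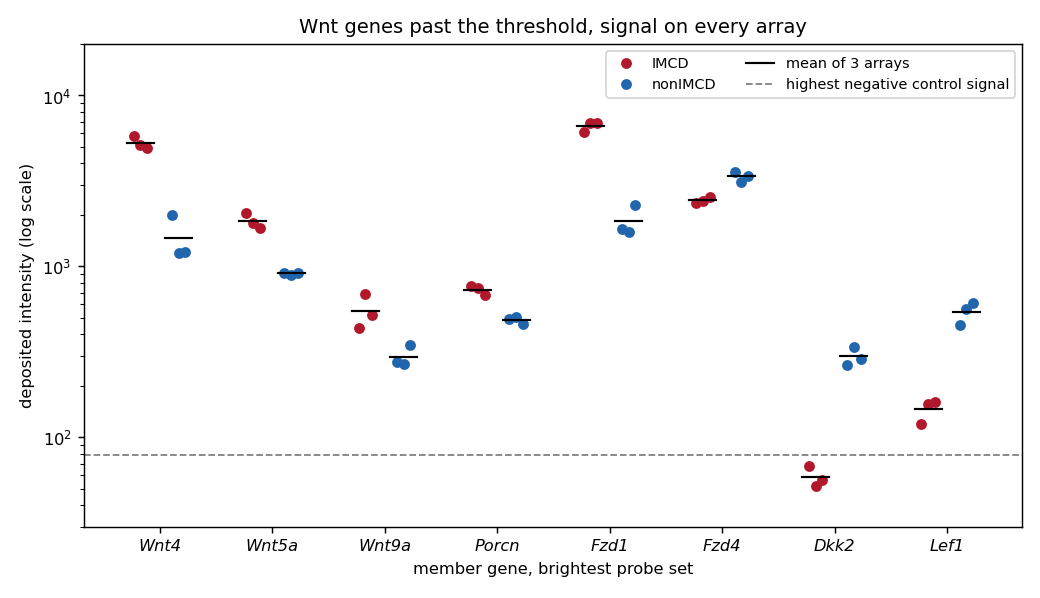
Signal on each array (deposited intensity, log axis), for the 8 called members, with IMCD arrays left of nonIMCD arrays, a bar at the mean of 3 arrays and a dashed line at the highest negative control. Wnt4, Wnt5a and Fzd1 sit higher in IMCD and Dkk2 and Lef1 lower, with no overlap between the fractions.

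Frizzled receptors went in both directions. Of 7 Frizzled genes, 1 was higher in IMCD, 1 was lower and 5 did not pass, so 28.6% were called beside 25.8% of all genes. The median log2 difference was -0.40, beside -0.09 over all genes. That median was the value of Fzd5 (-0.40 ± 0.68, SE), which averaged under the negative control in both fractions. Fzd1 had intensities of 6076, 6891 and 6879 on the IMCD arrays and 1651, 1595 and 2283 on the nonIMCD arrays. Every IMCD array stood far above every nonIMCD array. The means were 6615 ± 467 in IMCD and 1843 ± 382 in nonIMCD (SD, n = 3 each), 3.61-fold higher in IMCD (log2 difference 1.85 ± 0.18, SE, adjusted p = 0.00176).

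Fzd4, a receptor that binds Wnts and norrin and is known for its role in blood vessels, had intensities of 2350, 2406 and 2554 on the IMCD arrays and 3589, 3115 and 3382 on the nonIMCD arrays. The groups did not overlap. The log2 difference was -0.46 ± 0.12 (SE), with an adjusted p of 0.0467. Its second probe set ran the other way, with 549, 697 and 969 in IMCD and 375, 416 and 864 in nonIMCD, overlapping groups and a log2 difference of 0.47 (adjusted p = 0.429). Without any single array the adjusted p of the first probe set was 0.0705 to 0.138, and under median centring the log2 difference was -0.17 (adjusted p = 0.367). Endothelial markers were lower in IMCD in the same arrays, and their part in the Fzd4 difference was not tested.

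The other Frizzled genes are named here after their values were seen. Fzd2 gave 206, 264 and 196 in IMCD and 310, 314 and 332 in nonIMCD, a log2 difference of -0.50 with an adjusted p of 0.0671, which was 0.0484 without IMCD array 2. Fzd8 gave 723, 834 and 943 in IMCD and 1228, 1054 and 1264 in nonIMCD, a log2 difference of -0.50 with an adjusted p of 0.0723. Fzd3 gave 286, 287 and 387 in IMCD and 246, 185 and 249 in nonIMCD, a log2 difference of 0.47 with an adjusted p of 0.145. In all 3 genes the groups were separate without passing the test. Fzd6 differed by -0.05, with overlapping groups, and Fzd5 averaged under the negative control in both fractions.

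**Figure D2:**
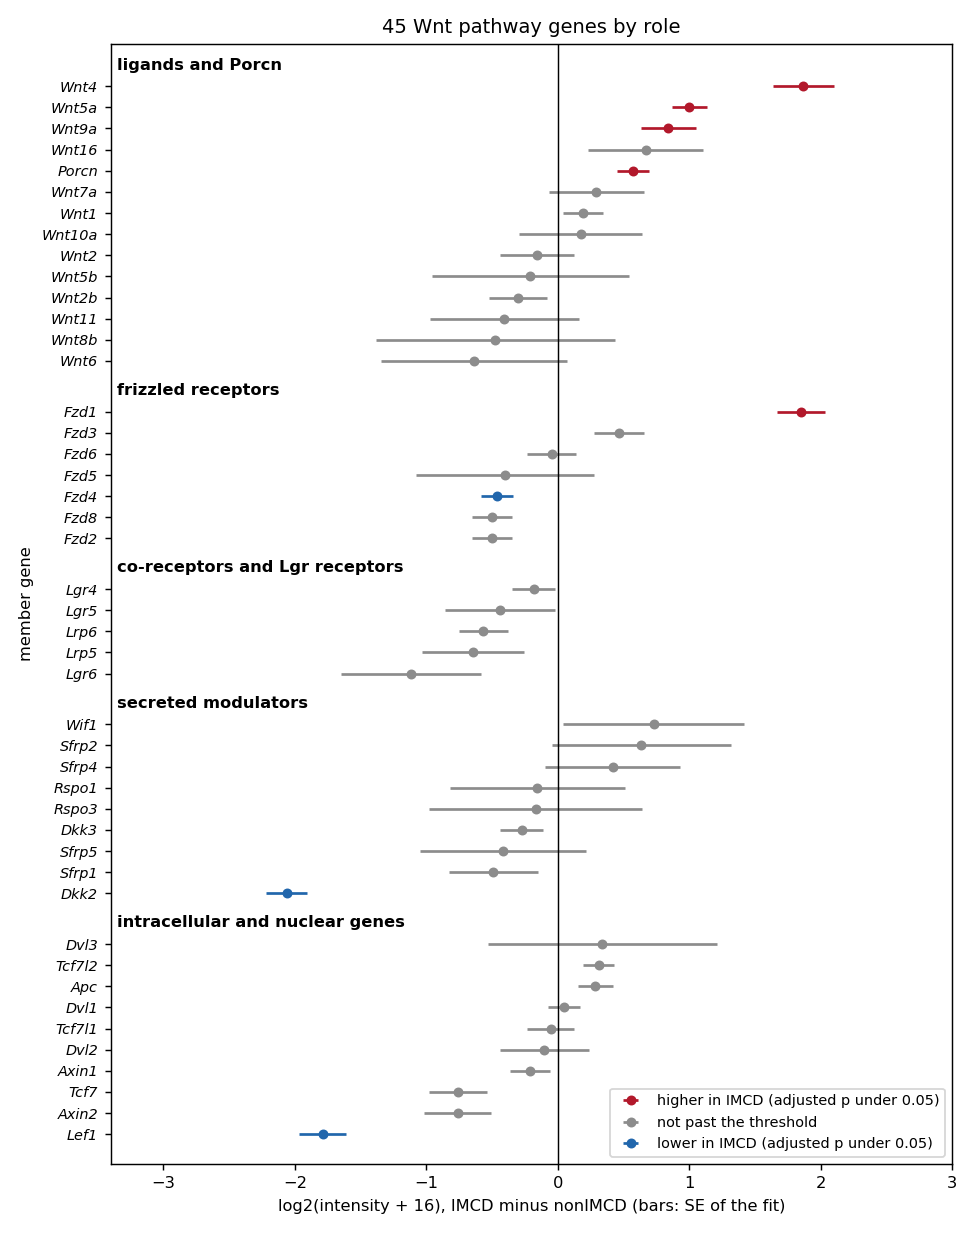
Log2 difference, IMCD minus nonIMCD, of each of the 45 members, grouped by role, with the SE of the fit as bars. Wnt4 (1.87) and Fzd1 (1.85) stand highest, and Dkk2 (-2.06) and Lef1 (-1.79) lowest.

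The Lgr receptors bind R-spondins and so sustain Wnt receptors at the surface. Of the co-receptors and the Lgr receptors, 0 of 5 passed in either direction, beside 25.8% of all genes called. All 5 differences were under 0, beside a median of -0.09 over all genes. The share of all genes under 0 was not counted. Before adjustment, limma's p was under 0.05 for 1 of these 5, Lrp6. Lgr4 gave 2165, 1713 and 1976 on the IMCD arrays and 1894, 2379 and 2381 on the nonIMCD arrays. The groups overlapped, and the log2 difference of -0.18 ± 0.16 (SE, adjusted p = 0.481) was 0.11 under median centring. Lrp6 gave 502, 537 and 434 in IMCD and 660, 916 and 646 in nonIMCD, separate groups with a log2 difference of -0.57 ± 0.19 (SE, adjusted p = 0.0837). Lgr6 averaged under the negative control in IMCD and did not pass (adjusted p = 0.2), with overlapping groups, and Lgr5 averaged under the negative control in both fractions.

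Lrp5 was decided by 1 array. It gave 496, 568 and 606 in IMCD and 1198, 1203 and 466 in nonIMCD, so that nonIMCD array 3 lay under all 3 IMCD arrays while the other nonIMCD arrays were far above them. The second Lrp5 probe set gave 385, 351 and 419 in IMCD and 917, 1021 and 406 in nonIMCD. There too nonIMCD array 3 lay far under the other nonIMCD arrays, but within the range of the IMCD arrays. The log2 difference of the first was -0.65 ± 0.39 (SE, adjusted p = 0.299), and without nonIMCD array 3 it was -1.09 (adjusted p = 0.0133).

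Secreted modulators were often dim. Of 9 genes, 1 (11.1%) was lower and 8 did not pass, beside 25.8% of all genes called. In both fractions, 4 of the 9 averaged no more than the highest negative control, beside 13.3% of all genes. Another 2 did so only in IMCD and 1 only in nonIMCD. Dkk2, which encodes a secreted protein that binds Lrp5 and Lrp6, gave 68.3, 52.1 and 56.6 on the IMCD arrays and 266, 338 and 289 on the nonIMCD arrays. All IMCD values were under the negative control level of 78.4 and all nonIMCD values above it. That level came from nonIMCD array 1, and each IMCD value was above the highest control of its own array (22.4, 45.2 and 45.8). The signal was at least 3.78-fold lower in IMCD, taking the negative control level as the IMCD value, and the log2 difference in the fit was -2.06 ± 0.15 (SE, adjusted p = 0.0008).

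Dkk3, a divergent Dickkopf family member, gave 189, 151 and 179 in IMCD and 217, 242 and 180 in nonIMCD. The groups overlapped, and the log2 difference was -0.27 ± 0.16 (SE, adjusted p = 0.29). Of the 3 dimmer Dkk3 probe sets, 2 averaged under the negative control in both fractions and 1 in nonIMCD, and none of these passed. Sfrp1, which encodes a secreted Wnt-binding protein, gave 77.9, 159 and 162 in IMCD and 131, 243 and 198 in nonIMCD, with overlapping groups. Sfrp2, Sfrp4, Sfrp5 and Rspo1 averaged under the negative control in both fractions, Rspo3 only in IMCD, and the Wnt-binding inhibitor gene Wif1 only in nonIMCD. Both Sfrp4 probe sets averaged under the negative control in both fractions. The second gave 5.68, 16.2 and 38.3 in IMCD and 62.8, 59.4 and 64.3 in nonIMCD. These groups were separate, with a log2 difference of -1.22 (adjusted p = 0.0516), against 0.42 for the first.

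Among the genes that relay the signal, Lef1 was lower in IMCD and the other 9 of 10 did not pass. The called share was 10.0%, beside 25.8% of all genes. Lef1 had intensities of 120, 157 and 161 on the IMCD arrays and 455, 567 and 610 on the nonIMCD arrays. No IMCD array came near a nonIMCD array. The means were 146.1 ± 22.5 in IMCD and 543.9 ± 80.2 in nonIMCD (SD, n = 3 each), with a log2 difference of -1.79 ± 0.18 (SE, adjusted p = 0.00192).

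A second Lef1 probe set gave 6.17, 7.06 and 29.3 in IMCD, all under the negative control level, and 304, 283 and 269 in nonIMCD. The signal there was at least 3.63-fold lower in IMCD (adjusted p = 0.0013). Lef1 is also known in lymphocytes. The T cell marker Cd3e gave 79.3, 80.5 and 8.76 in IMCD and 438, 447 and 68.3 in nonIMCD, overlapping groups that did not pass (adjusted p = 0.149). On nonIMCD array 3 Cd3e was at its lowest in that fraction. There the first Lef1 probe set was at its highest in that fraction and the second at its lowest. Gzmb, of the same marker list, gave 52.0, 91.1 and 19.1 in IMCD and 3898, 3728 and 4884 in nonIMCD (adjusted p = 0.000605). The part of leukocytes in the Lef1 difference was not tested.

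Tcf7, the other TCF/LEF gene known from T cells, gave 413, 441 and 622 in IMCD and 989, 842 and 685 in nonIMCD. The groups were separate, and the log2 difference was -0.76 ± 0.22 (SE, adjusted p = 0.06), with an adjusted p of 0.0444 without IMCD array 3. Tcf7l2 gave 4092, 4114 and 4354 in IMCD and 3247, 3255 and 3621 in nonIMCD. Its groups were separate too, the other way round, with a log2 difference of 0.31 ± 0.12 (SE, adjusted p = 0.124). The other 4 Tcf7l2 probe sets had differences between -0.24 and 0.45, and none of these passed. Tcf7l1 differed by -0.05.

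Axin2, the feedback gene whose promoter is printed above, gave 195, 373 and 338 in IMCD and 482, 547 and 490 in nonIMCD. The groups did not overlap, and the log2 difference was -0.76 ± 0.26 (SE, adjusted p = 0.0886). Apc, a scaffold of the destruction complex, gave 1947, 1916 and 1836 in IMCD and 1748, 1412 and 1520 in nonIMCD, a log2 difference of 0.29 (adjusted p = 0.19). Axin1, the constitutive scaffold, differed by -0.21 (adjusted p = 0.384) and Dvl1, a Dishevelled gene, by 0.05. A second bright Dvl1 probe set gave 1168, 1231 and 1058 in IMCD and 1181, 1721 and 1941 in nonIMCD. Its groups overlapped, with a log2 difference of -0.45 (adjusted p = 0.196). The other Dishevelled genes, Dvl2 (-0.10) and Dvl3 (0.34), had overlapping groups.

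**Figure D3:**
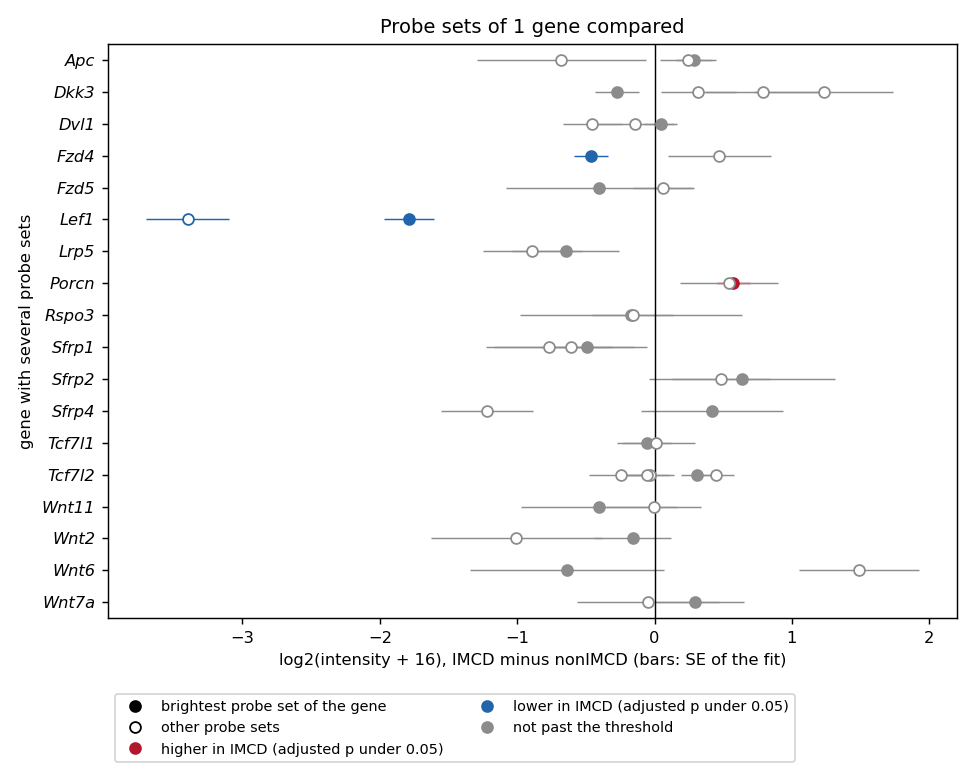
Log2 difference, IMCD minus nonIMCD, of every probe set of the members with more than 1 probe set, filled where it represents the gene and with the SE of the fit as bars. Lef1 is low in both of its probe sets, while Fzd4 has probe sets on both sides of 0. Probe sets far to the right of 0 for Wnt6 and Dkk3 averaged under the negative control in both fractions.

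Of the 45 members, 27 had 1 probe set and 18 had several. The probe sets of a gene differed in sign in 10 of these 18 and had the same sign in 8. In Fzd4, Dvl1, Tcf7l1 and Tcf7l2 the signs differed between probe sets that averaged above the negative control in both fractions. Where a probe set averaged under the negative control in both fractions, as in Wnt6, Dkk3, Sfrp4 and Apc, its sign rests on dim signals. The second probe sets of Wnt6 and Sfrp4 still had separate groups. How much of such signals is background was not tested. No member had called probe sets in opposite directions.

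Further pathway genes were taken from 6 lists. Of 71 measured genes, 9 were higher in IMCD, 7 were lower and 55 did not pass, so 22.5% were called beside 25.8% of all genes. At the cell surface 3 of 7 genes (42.9%) were lower and 4 did not pass. Gpc3, which encodes a glypican, a proteoglycan of the cell surface, gave 277, 259 and 166 in IMCD and 4719, 5612 and 4459 in nonIMCD (log2 difference -4.33 ± 0.22, SE, adjusted p = 0.000333). Gpc4, a related glypican, differed by -1.90, and Znrf3, which encodes an enzyme that removes Frizzled receptors, by -0.99 (adjusted p = 0.013). All 3 had groups that did not overlap.

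Among further secreted or membrane-bound inhibitors and modulators, 1 of 7 (14.3%) was lower and 6 did not pass. Apcdd1, which encodes a membrane-bound Wnt inhibitor, gave 868, 1073 and 804 in IMCD and 3162, 4227 and 3522 in nonIMCD, a log2 difference of -1.97 (adjusted p = 0.00142). Of 22 genes of the destruction complex and cytoplasm, 5 were higher and 1 was lower. The called share was 27.3%, beside 25.8% of all genes. Frat2, which encodes an inhibitor of GSK3, was higher by 1.51 and Nlk, which encodes a kinase of TCF/LEF factors, by 0.83 on the log2 scale. Nkd1, a feedback inhibitor that binds Dishevelled, gave 126, 136 and 119 in IMCD and 400, 449 and 457 in nonIMCD, lower by a log2 difference of -1.66 (adjusted p = 0.000824).

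Nuclear cofactors held 1 lower gene of 15 (6.67%), the corepressor gene Tle2 (-1.16), beside 25.8% of all genes called. Of 9 planar polarity genes, 2 (22.2%) were called. Prickle1 was higher (0.85, and 0.53 with adjusted p = 0.0848 when its probe sets were averaged). Celsr2 was lower (-0.68, and -0.39 with adjusted p = 0.0627 under median centring). Of 12 common Wnt target genes, 3 were higher, 1 (Nkd1) was lower and 8 did not pass, so 33.3% were called. Tbx3, a T-box factor gene, gave 3118, 3122 and 2926 in IMCD and 657, 706 and 525 in nonIMCD, a log2 difference of 2.26 (adjusted p = 0.000581). Fosl1, an AP-1 subunit gene, differed by 2.03 (adjusted p = 0.00063). Tnfrsf19, a receptor gene of the TNF family, differed by 2.17 (adjusted p = 0.0413), and its call was lost, at 0.0949 to 0.109, without IMCD array 1, 2 or 3 or nonIMCD array 1. It gave 373, 412 and 343 in IMCD and 83.5, 21.3 and 160 in nonIMCD. The nonIMCD mean of 88.4 was near the negative control level of 78.4. The beta-catenin gene Ctnnb1 gave 22346, 24990 and 26220 in IMCD and 31486, 27776 and 34880 in nonIMCD, and did not pass (log2 difference -0.35, adjusted p = 0.147).

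**Figure D4:**
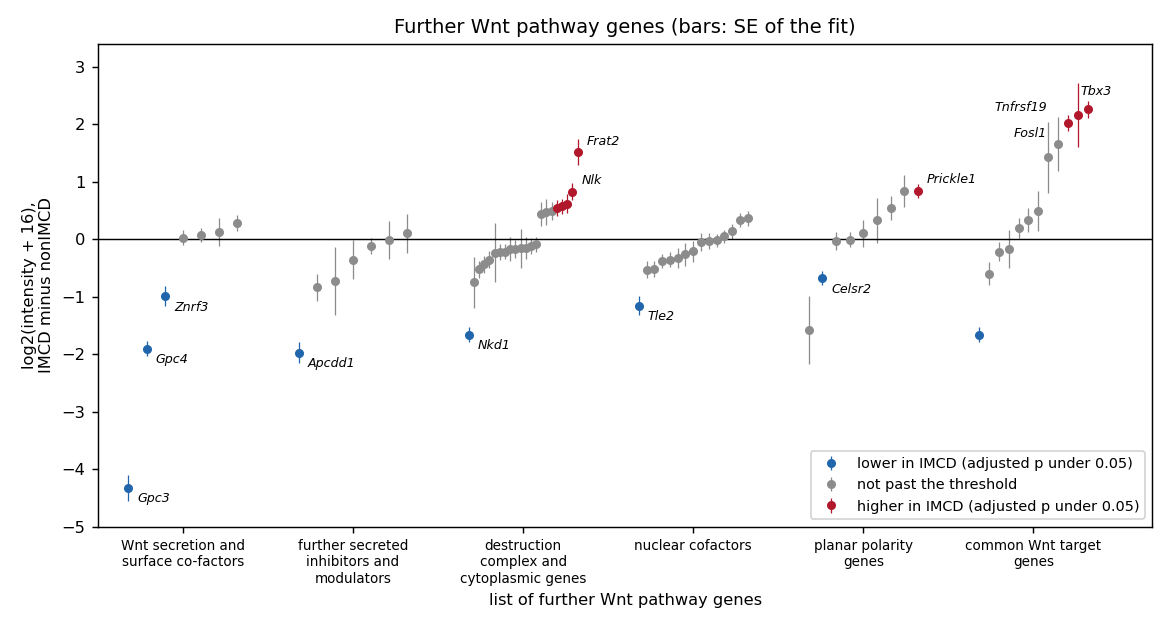
Log2 difference, IMCD minus nonIMCD, of further Wnt pathway genes in 6 lists, with the SE of the fit as bars and called genes in colour. Gpc3 (-4.33) stands lowest and Tbx3 (2.26) highest.

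**Figure D5:**
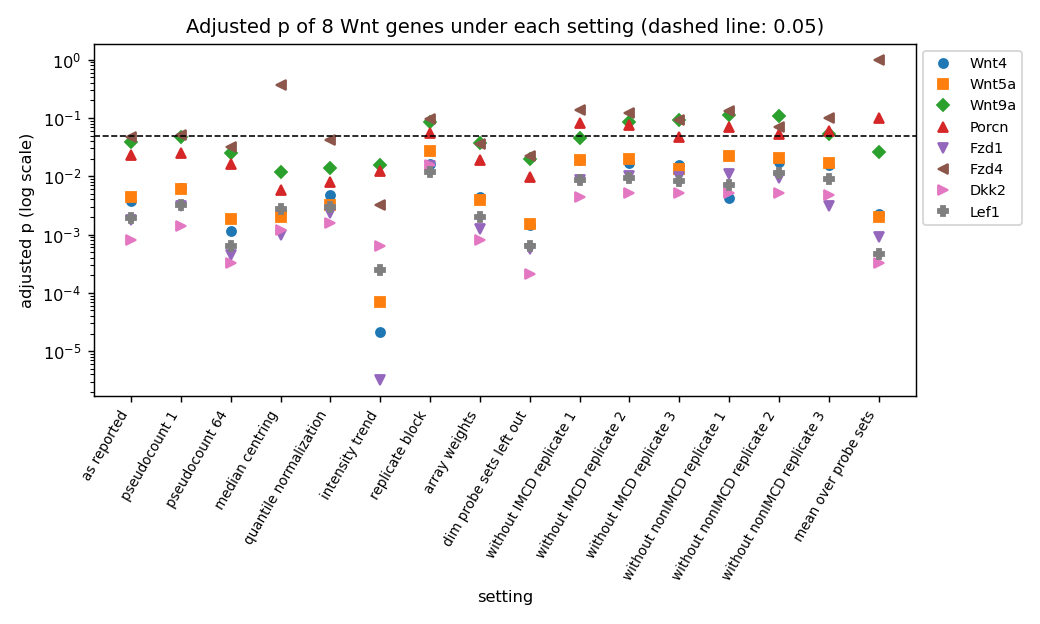
Adjusted p (log axis) of the 8 called members as reported and under each of 15 alternative ways of processing, with a dashed line at 0.05. Wnt4, Wnt5a, Fzd1, Dkk2 and Lef1 stay under the line in all 15, while Fzd4 reaches 0.987 when its probe sets are averaged.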

How the data were processed

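The deposited values were linear intensities, with 1 value for a probe set on an array. Every array's mean, after trimming 2% of values from either end, was 1000.3 to 1000.4, which shows a scaling step made before deposit. The image and summary software was not given in the sources used here. In all, the table held 31099 probe sets, of which 57 controls were left out and 31042 tested, without a filter. Symbols came from the platform annotation: 20826 probe sets had 1 symbol, 436 several and 9780 none, and none was named from several.

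Intensities were analysed as log2(value + 16), which understates differences of dim signals, using lmFit and eBayes of limma 3.58.1 (R 4.3.3), two-sided, without covariates, and adjusted by Benjamini-Hochberg with a threshold of 0.05. In 1 simulated draw per size, the fit recovered 0% of changes of 1 on the log2 scale and 65% of changes of 2. At the larger size 9.09% of calls were false, above the threshold, but 1 draw does not fix that share. Far fewer probe sets were changed there than were called in the data, so these shares do not carry over. A gene that did not pass is not shown to be equal between the fractions. The text of the series speaks of 3 pairs, but no label ties arrays to a pair. P-values measure the spread between arrays, which may share animals, and the number of arrays limits precision.

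Members, lists, tests and alternatives were chosen with earlier results of these data known. Named with values on every array were called members with a log2 difference of at least 1 and, in each role group, the gene with the highest signal. Other called members, and up to 3 called genes per further list, were named with their difference. Members and pathway genes named beyond that were chosen after their values were seen. The 6 further lists held genes of Wnt secretion and the surface, secreted inhibitors and modulators, the destruction complex and cytoplasm, nuclear cofactors, planar polarity and common targets. Of 10 marker lists, those not described in the report gave, as higher, lower and measured genes, 3, 0 and 6 (intercalated cell), 0, 4 and 5 (thin limb), 0, 3 and 6 (thick limb), 0, 2 and 6 (proximal tubule), 0, 1 and 6 (urothelium) and 0, 3 and 3 (erythroid).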

Additional observations from a re-analysis of the deposited data

How the results depend on the processing

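Of 45 members, 5 were called higher and 3 lower as reported. The higher count was 8 under median centring and 3 to 4 without single arrays, and the lower count was 7 with an intensity trend, 7 without dim probe sets and 5 with probe sets averaged. The members' median log2 difference of -0.17 was 0.12 under median centring, 0.044 under quantile normalization and -0.19 to -0.066 without single arrays. Quantile normalization shifted the median of all genes by 0.11. Of the further pathway genes, 9 were higher and 7 lower. The higher count was 16 under median centring, 14 with a trend and 5 to 8 without single arrays, and the lower count was 11 with a pseudocount of 64, 15 with a trend, 13 without dim probe sets and 12 with probe sets averaged. Over all probe sets, 2663 were higher and 4163 lower as reported, 5389 and 2652 under median centring, and 1537 to 2248 and 2647 to 3221 without single arrays. Differences changed sign for Fzd4 with probe sets averaged (0.0062), Lgr4 (0.11) and Axin1 (0.075) under median centring, Dkk3 under median centring (0.015), quantile normalization (0.037) and with probe sets averaged (0.52), and Apc with probe sets averaged (-0.049). Median centring adds the same amount to every difference, and the averages for Dkk3 and Apc take in probe sets under the negative control in both fractions. The cause of the other changes was not tested. The array numbers were not taken as pairs in the fit because no label ties arrays to a pair. Arrays of the same number in the 2 fractions deviated together at r = 0.040, 0.035 and 0.061 over all probe sets. Each array correlated best with its own number, and r was 0.135, 0.218 and 0.272 over the 16673 brighter probe sets. Whether the numbers mark pairs is therefore not settled, and the fit with a block is given beside the other. With the replicate number as a block, 3 members were higher and 2 lower, the further pathway genes had 4 higher and 7 lower, and 1831 and 2993 probe sets were higher and lower. Under the block the calls of Wnt9a, Porcn, Fzd4, Nlk (adjusted p = 0.0507) and Tnfrsf19 (0.0848) were lost. The 4 further pathway genes still called higher were Tbx3, Fosl1, Frat2 and Prickle1, so others not listed here lost their call too. Signals near or under the negative controls limit what can be said of 11 members in both fractions.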

Other observations

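Some further pathway genes, chosen after their values were seen, had separate groups and adjusted p just over 0.05. Csnk1g2, a casein kinase gene, gave 1633, 1887 and 1764 in IMCD and 2233, 2818 and 2597 in nonIMCD (adjusted p = 0.0507). Ctnnbip1, which encodes an inhibitor of beta-catenin binding to TCF, gave 754, 689 and 577 in IMCD and 975, 983 and 942 in nonIMCD (adjusted p = 0.051). Frzb, which encodes a secreted Wnt-binding protein, gave 141, 184 and 183 in IMCD and 253, 277 and 434 in nonIMCD (adjusted p = 0.0566). Ccn4, a Wnt target gene, gave 257, 244 and 220 in IMCD and 123, 23.0 and 81.8 in nonIMCD (adjusted p = 0.0547). The first 3 were lower in IMCD on every array and Ccn4 was higher on every array, without passing the test. Sostdc1, which encodes a secreted inhibitor of Wnt and BMP signals, gave 14228, 16030 and 15156 in IMCD and 15160, 18858 and 15497 in nonIMCD, with overlapping groups.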
